A study of Mus musculus with 20 samples.

Results

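Potassium channel genes were followed in 2 stromal cell populations of mouse gonadal white fat. They were taken as all protein-coding genes of the expression table whose symbol begins with Kcn followed by a family letter or letters and a number, which gave 93 of the 54304 genes listed. RNA sequencing of polyadenylated RNA was carried out on fibro-inflammatory progenitors (FIPs), sorted as CD45- CD31- PDGFRβ+ LY6C+ cells, and on adipogenic precursor cells (APCs), sorted as CD45- CD31- PDGFRβ+ LY6C- CD9- cells. Cells came from male mice 8 weeks of age, kept at 30 °C and fed for 1 month with a diet that took 60% of its calories from fat. All 4 groups shared this age, sex, housing and diet. The genotypes were control and Mural-Zfp423 transgenic, whose name places Zfp423, a zinc-finger transcription factor, in mural cells, the pericytes and smooth muscle cells that wrap small vessels; the labels do not give the driver. Each of the 4 groups (control APCs, transgenic APCs, control FIPs, transgenic FIPs) had 5 libraries, and each library pooled RNA from 2 mice. Since 10 mice of a genotype supplied both its FIP and its APC pools, some of these pools come from the same animals, and the labels do not say which. The genotype of a library is known from its label, so the groups are called labelled transgenic below.

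Potassium channels let potassium leave or enter the cell down its gradient and so hold the resting membrane potential and end electrical or calcium signals. The pore-forming families differ in what opens them: voltage for the Kcna, Kcnb, Kcnc, Kcnd, Kcnh and Kcnq subunits, and calcium or sodium inside the cell for Kcnn, Kcnma and Kcnt. The tandem-pore channels of the Kcnk family pass a leak current at rest that stretch, acidity or lipids can change. Inward rectifiers (Kcnj) pass potassium best near rest, and some of them couple the membrane to cell metabolism. Kcnf, Kcng, Kcns and Kcnv subunits are electrically silent on their own and modify voltage-gated partners, while Kcnab, Kcne, Kcnip and Kcnmb proteins are auxiliary subunits without a pore. In vessel walls, inward rectifiers and calcium-activated channels of smooth muscle and pericytes are known for setting vessel tone.

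All 77 pore-forming members held, in frame, codons of the kind that form the potassium selectivity filter, and none of the 16 auxiliary members did. The search read the longest annotated coding sequence of each gene (GENCODE M21, genome GRCm38) in frame and on the coding strand for GGNTACGGN, GGNTATGGN, GGNTTCGGN or GGNTTTGGN, which encode glycine, tyrosine or phenylalanine, and glycine. The TAC or TAT form stood anywhere in the coding sequence of 62 pore-forming members, which counts words and not filters. In Kcnh4, for example, the only such word lay at coding bases 160 to 168, far ahead of where the other Kcnh members hold a filter word, and a phenylalanine form was also present. Across all protein-coding genes with a coding sequence, 13.4% held any of these 9-base words in frame and 6.1% held a TAC or TAT form. The exonic sequences of 6 pore-forming genes with called differences are shown 5′ to 3′, with the 9 filter bases in capitals and 12 bases on each side.
Kcna2: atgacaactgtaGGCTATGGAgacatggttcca
Kcna1: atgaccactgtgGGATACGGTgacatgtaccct
Kcng4: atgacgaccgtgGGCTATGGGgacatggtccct
Kcnk5: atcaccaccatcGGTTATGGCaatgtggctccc
Kcnk3: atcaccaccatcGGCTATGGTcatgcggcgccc
Kcnj8: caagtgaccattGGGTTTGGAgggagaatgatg
Kcnj8 is an example of the phenylalanine form, which 15 pore-forming members held without any tyrosine form, among them Kcnk2 and Kcnt2. In GRCm38, Kcna2 lies on the plus strand at chr3:107101146-107115005, Kcna1 on the minus strand at chr6:126640397-126646384 and Kcng4 on the minus strand at chr8:119623854-119635680. Kcnk5 is at chr14:20140057-20181809 (minus strand), Kcnk3 at chr5:30588170-30625271 (plus strand) and Kcnj8 at chr6:142564837-142571614 (minus strand).

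The table gives log2 CPM (counts scaled to library size, on a log2 scale), and any value up to 1 CPM appears in it as 0. Depth, read from the step between the smallest values, ran from 6.6 to 8.5 megareads per library, and 15972 to 17282 genes stood above 0. The 6 stromal markers checked (Pdgfrb, Pdgfra, Col1a1, Col1a2, Dcn and Lum) were above 0 in all 20 libraries. Ly6c1 was 1.71 ± 0.07 (SE) log2 units higher in control FIPs than in control APCs. Zfp423 stood at 4.97 ± 0.17 (SD, n = 5) in control APCs, 4.70 ± 0.27 in APCs labelled transgenic, 5.47 ± 0.12 in control FIPs and 5.53 ± 0.04 in FIPs labelled transgenic, so its level did not mark the label in these libraries. The sources used here do not give whether reads of the transgene were counted as Zfp423. 3 APC libraries resembled the other genotype more than their own. Replicate 1 of the control APCs correlated across genes at 0.9896 with its own group's mean and 0.9922 with that of the APCs labelled transgenic, replicate 2 at 0.9936 and 0.9938, and replicate 1 of the APCs labelled transgenic at 0.9903 with its own and 0.9943 with the control group. The mean of the own group left out the library itself, while the other mean held all 5 libraries. The 2 values of replicate 2 of the control APCs are too close to be told apart on that basis. Genotype results in APCs are therefore given with and without replicate 1 of both APC groups, a setting chosen after seeing the data. Replicate 2 of the control APCs was kept in it. The 2 replicate 1 libraries were picked for their likeness to the other genotype, so leaving them out favours larger genotype differences in APCs. More calls and smaller adjusted p-values in that setting are therefore no added support for those differences. Whether the labels of these 2 libraries were exchanged was not tested, and an exchange would change every APC genotype value. Of the genes of the sort, Cd9, Ly6c1 and Ly6c2 read lower in all 5 APC libraries labelled transgenic, replicate 1 included, than in any control APC library. Ptprc and Pecam1, the other genes of the sort checked, overlapped between the APC groups. For both, replicate 1 was the lowest control library (3.98 and 6.25) and the highest of those labelled transgenic (4.61 and 6.58).

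Of the 93 genes, 45 were above 0 in at least 5 libraries and were tested, 17 were above 0 in 1 to 4 libraries, and 31 were listed at 0 in every library. The share listed at 0 everywhere, 33.3%, compares with 30.5% of all 21928 protein-coding genes, and the share tested, 48.4%, with 65.0%. The 31 genes listed at 0 were Kcna4, Kcna10, Kcnb2, Kcnc1, Kcnd2, Kcnh1, Kcnh5, Kcnh6 and Kcnh8 among the voltage-gated pore subunits, and Kcnf1, Kcng3, Kcns1, Kcns2 and Kcnv1 among the silent modifiers. They also held the inward rectifiers Kcnj3, Kcnj5, Kcnj6 and Kcnj13, the leak channels Kcnk4, Kcnk10, Kcnk12, Kcnk15, Kcnk16 and Kcnk18, the calcium-activated Kcnn2, and the auxiliary Kcne2, Kcnip1, Kcnmb1, Kcnmb2, Kcnmb3 and Kcnmb4. A listing at 0 means 1 CPM or less, about 6.6 to 8.5 reads, and does not show absence. Kcnmb1, the auxiliary subunit known from smooth muscle BK channels, was thus at or below 1 CPM in both sorted populations. The 17 genes above 0 in 1 to 4 libraries reached at most 1.03 log2 CPM among voltage-gated subunits such as Kcna3, Kcna6, Kcna7, Kcnq3 and Kcnq5, 0.78 for Kcng2, 0.24 among Kcnj4, Kcnj9, Kcnj11 and Kcnj12, 1.46 among Kcnk1, Kcnk7 and Kcnk9, and 0.38 among Kcne1, Kcne3 and Kcnip2.

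Per length, Kcnk2 and Kcnip3 were among the most abundant members, and neither was called in any comparison over all libraries. Levels between genes are compared as CPM per kb of the longest annotated transcript. Kcnk2, a leak channel opened by membrane stretch and fatty acids, led with a mean of 11.1 CPM per kb over the 20 libraries, and the auxiliary Kcnip3 stood at 9.31. The leak channel Kcnk6 (8.00), the sodium-activated Kcnt2 (7.82), the auxiliary Kcne4 (7.57) and the calcium-activated Kcnn3 (7.14) came next. Group means of Kcnk2 ran from 9.73 ± 1.33 (SD, n = 5) in control APCs through 10.7 ± 0.642 in control FIPs and 11.4 ± 2.06 in APCs labelled transgenic to 12.7 ± 1.06 in FIPs labelled transgenic. Neighbours in that order differed by less than the larger of their SDs. Kcnk2, Kcnip3 and Kcnt2 were named as abundant genes without a FIP against APC call, as was Kcnab2. On the log2 CPM scale, Kcnk2 had group means of 5.11 to 5.50, Kcnt2 of 5.35 to 5.64 and Kcnip3 of 4.43 to 4.79. For Kcnk2 the 95% interval of the FIP minus APC difference ran from -0.08 to 0.38 in control mice and from -0.06 to 0.39 in mice labelled transgenic.

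**Figure D1:**
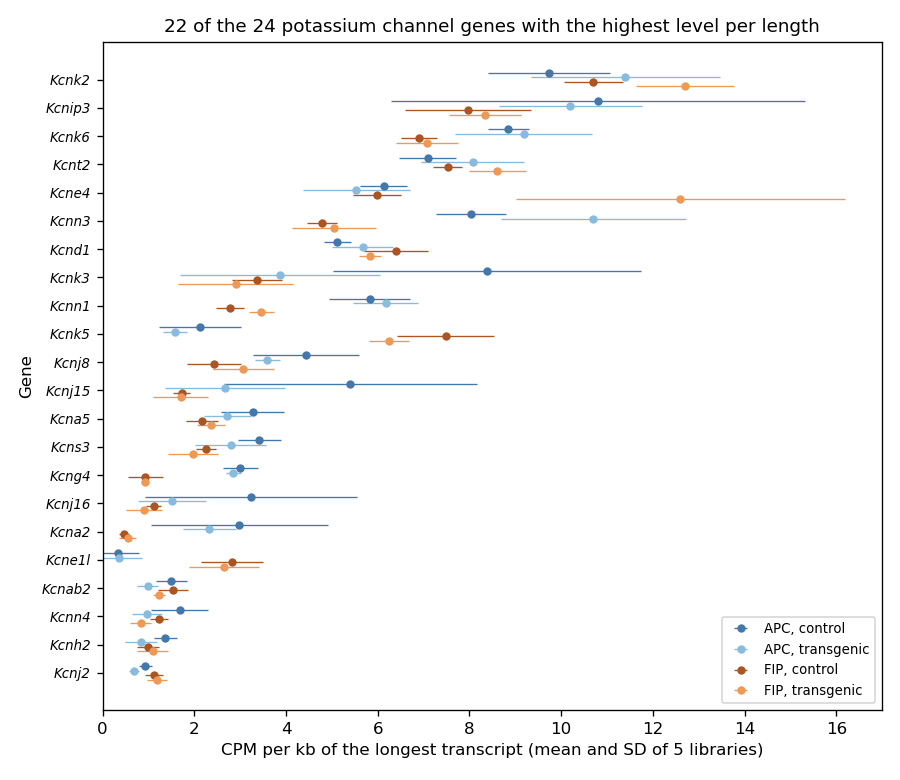
Level of 22 of the 24 potassium channel genes with the highest mean CPM per kb of the longest transcript, x axis in CPM per kb, with 1 point per group (mean of 5 libraries) and bars of 1 SD. Kcnk2 lies between 9.73 and 12.7 CPM per kb in the 4 groups, and Kcne4 in FIPs labelled transgenic (12.6) lies apart from its other 3 groups (5.53 to 6.13).

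FIPs and APCs were compared within each genotype to ask how the 2 populations differ. In control mice most of the differing potassium channel genes were lower in FIPs: 22 of 45 fell and 6 rose at an adjusted p of 0.05 or less (limma, Benjamini-Hochberg over 17435 genes). Calls were made for 47.5% of all genes tested, 27.9% lower and 19.6% higher, against 62.2%, 48.9% and 13.3% of the channel genes. The median difference was -0.49 log2 units over the channel genes and -0.06 over all genes. Centring libraries on their medians left the 22 lower and 6 higher, while quantile normalization gave 16 lower and 8 higher. Centring moved the share of higher calls over all genes from 41.3% to 52.8%. The libraries did not overlap for 17 of the 45 genes, 12 lower and 5 higher, against 31.4% of all genes. Of the called members, 6 of the 22 lower (Kcnc4, Kcng1, Kcnj1, Kcnj10, Kcnj14 and Kcnt1) and 3 of the 6 higher (Kcne1l, Kcnh3 and Kcnv2) were above 0 in fewer than 5 libraries of the other population, so they entered the test only through the population where they were high and had to differ. Over all genes this held for 9.86% of the lower calls and 4.15% of the higher.

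In mice labelled transgenic, 9 of the 45 genes rose in FIPs and 9 fell, and 41.7% of all genes were called (22.7% higher and 19% lower). Libraries did not overlap for 14 of the 45, against 29% of all genes. The median difference was -0.18 over the channel genes and -0.01 over all genes. Centring gave 9 higher and 10 lower and moved the share of higher calls over all genes from 54.5% to 43.8%. In all, 4 genes were higher in FIPs of both genotypes (Kcna1, Kcne1l, Kcnh3 and Kcnk5), and 9 were lower in both (Kcna2, Kcnd3, Kcng4, Kcnip4, Kcnk6, Kcnn1, Kcnn3, Kcns3 and Kcnt1). Kcnt1 among the lower, and Kcne1l and Kcnh3 among the higher, entered the test only through the population where they were high, as did Kcnk13, called higher in mice labelled transgenic. Kcnma1 was lower in control FIPs and higher in FIPs labelled transgenic. A further 14 genes passed in control mice alone and 4 in mice labelled transgenic alone, and the direct test of such a difference between genotypes called 0 of the 45. Without replicate 1 of both APC groups, 23 genes were lower and 6 higher in control FIPs, and 7 were lower and 11 higher in FIPs labelled transgenic. The shares of all genes called in that setting are not given here, so these counts are not read as particular to channel genes.

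**Figure D2:**
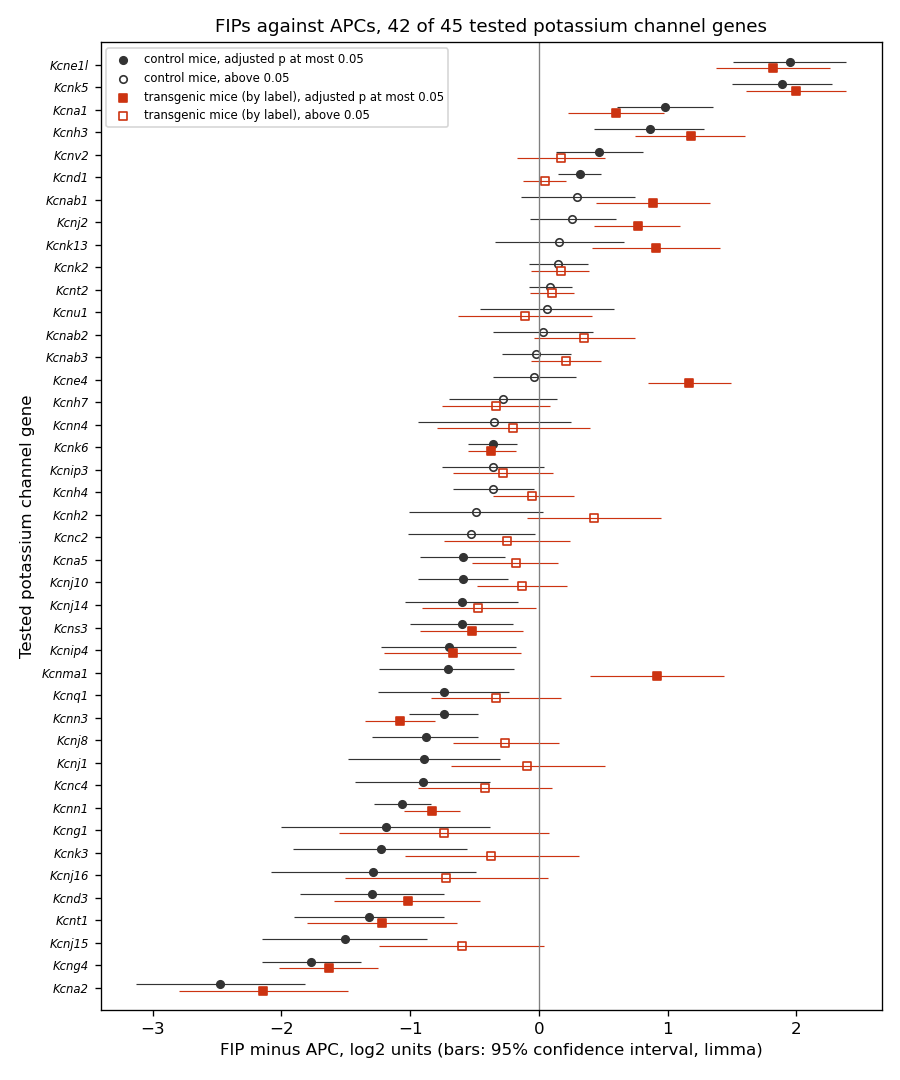
FIP minus APC difference in log2 units for 42 of the 45 tested potassium channel genes, in control mice (circles) and mice labelled transgenic (squares), with 95% confidence intervals from limma and filled symbols where the adjusted p is 0.05 or less. Kcna2 and Kcng4 lie at the lower end and Kcne1l and Kcnk5 at the upper end in both genotypes.

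Among the voltage-gated pore subunits, 3 of 15 tested were higher and 6 lower in control FIPs, and 2 were higher and 2 lower in FIPs labelled transgenic. The shares of all genes called were 19.6% higher and 27.9% lower in control mice, and 22.7% and 19% in mice labelled transgenic. Of these calls, Kcnh3 (higher in both) and Kcnc4 (lower in control mice) entered the test only through the population where they were high. Kcna2, a delayed rectifier subunit best known from axons, showed the largest fall. Its control APC libraries read 6.14, 5.39, 4.49, 4.25 and 4.20 log2 CPM and its control FIP libraries 2.88, 2.00, 2.41, 2.48 and 2.31, so the groups did not overlap. The difference was -2.48 ± 0.31 (SE) log2 units, 5.57-fold lower in FIPs, with an adjusted p of 1.89e-06 (exact permutation test, two-sided, p = 0.00794, the smallest that 5 against 5 libraries allow). In mice labelled transgenic, APC libraries read 5.17, 4.52, 4.43, 5.01 and 4.49, FIP libraries read 3.15, 2.51, 2.67, 2.87 and 1.72, and the difference was -2.14 ± 0.31 (adjusted p = 1.11e-05). Kcnd3, which carries a transient outward current, fell by 1.30 (SE 0.27) in control FIPs and by 1.02 (SE 0.27) in FIPs labelled transgenic.

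Kcna1, a near relative of Kcna2, went the other way. Control APC libraries held 1.47, 1.21, 1.25, 0.73 and 1.71 log2 CPM and control FIP libraries 2.62, 2.16, 2.20, 1.77 and 2.53, without overlap. It was 0.98 ± 0.18 log2 units higher in control FIPs (adjusted p = 0.000135) and 0.60 ± 0.18 higher in FIPs labelled transgenic (adjusted p = 0.00967). Kcna5, its neighbour on chromosome 6 with a gap of 105.0 kb between the genes, was 0.59 ± 0.16 lower in control FIPs (adjusted p = 0.00486), and differed by -0.18 ± 0.16 in mice labelled transgenic (adjusted p = 0.383). On chromosome 3, Kcna2 lies between Kcna3, 63.1 kb away and above 0 in at most 4 libraries, and Kcna10, 68.0 kb away and listed at 0 throughout. Members of both clusters thus stood at different levels or moved in different directions. Kcnd1 rose by 0.32 ± 0.08 in control FIPs, where its libraries did not overlap those of APCs (adjusted p = 0.00237), and differed by 0.05 ± 0.08 in mice labelled transgenic (adjusted p = 0.674). Kcnh3 (higher), Kcnc4 and Kcnq1 (lower) also passed in control mice, at mean levels of at most 0.98 log2 CPM. Of the exons of Kcnq1, 3.0% lie opposite Kcnq1ot1, which averaged 4.75 log2 CPM, and of those of the auxiliary Kcnip4, 4.6% lie opposite 5730480H06Rik at 4.08, so that the strand of their reads is uncertain.

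Among the silent modifiers, Kcng4 showed the largest difference between the populations in both genotypes. Of 4 tested, 3 fell and 1 rose in control FIPs, and 2 fell in FIPs labelled transgenic. Over all genes, 27.9% were called lower and 19.6% higher in control FIPs, and 19% and 22.7% in FIPs labelled transgenic. Of the calls in control mice, Kcng1 (lower) and Kcnv2 (higher) entered the test only through the population where they were high. Kcng4, which alters the gating of Kcnb subunits, read 3.73, 3.33, 3.63, 3.31 and 3.53 log2 CPM in control APCs and 2.00, 2.56, 1.64, 1.28 and 1.22 in control FIPs. Every APC library lay above every FIP library, and the difference was -1.77 ± 0.18 in control mice (adjusted p = 1.31e-07) and -1.63 ± 0.18 in mice labelled transgenic (adjusted p = 3.52e-07). Kcns3, another partner of Kcnb subunits, was 0.60 ± 0.19 lower in control FIPs (adjusted p = 0.015) and 0.52 ± 0.19 lower in FIPs labelled transgenic (adjusted p = 0.0363). The second of these calls was lost without replicate 1 or replicate 4 of the APCs labelled transgenic (-0.37, adjusted p = 0.118, and -0.51, adjusted p = 0.0642) and without replicate 2 or replicate 4 of the FIPs labelled transgenic (-0.52, adjusted p = 0.057, and -0.32, adjusted p = 0.126).

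Of the channels grouped by gene family as calcium- or sodium-activated, 4 of 7 tested fell in control FIPs, where 27.9% of all genes fell. In FIPs labelled transgenic, 3 fell and 1 rose, against 19% and 22.7% of all genes. Kcnt1, which fell in both genotypes, entered the test only through APCs and had to differ. Kcnn3 and Kcnn1 encode small-conductance channels that open when cytosolic calcium rises. Kcnn3 was the member with the highest log2 CPM, and its control APC libraries read 5.87, 6.25, 6.07, 6.07 and 6.02 against 5.34, 5.22, 5.39, 5.42 and 5.20 in control FIPs. It was 0.74 ± 0.13 lower in control FIPs (adjusted p = 9.31e-05) and 1.08 ± 0.13 lower in FIPs labelled transgenic (adjusted p = 7.6e-07), with no overlap in either. Kcnn1 was 1.06 ± 0.11 lower in control FIPs, 2.08-fold, and 0.83 ± 0.11 lower in FIPs labelled transgenic (adjusted p = 6.27e-08 and 1.68e-06). Kcnt1, a sodium-activated channel named after its values were seen, was listed at 0 in all 10 FIP libraries, against 2.12, 1.63, 0.81, 0.73 and 1.32 log2 CPM in control APCs and 2.34, 1.56, 0.47, 0.63 and 1.08 in APCs labelled transgenic. Its relative Kcnt2 differed by 0.09 ± 0.08 and 0.10 ± 0.08 between the populations (adjusted p = 0.37 and 0.334).

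The leak channels held the clearest rise. Kcnk5, an acid-sensitive leak channel, read 2.28, 2.40, 2.52, 3.6 and 3.02 log2 CPM in control APCs and 4.89, 4.54, 4.64, 4.82 and 4.38 in control FIPs. FIPs lay above APCs in every library, by 1.89 ± 0.19 log2 units or 3.71-fold in control mice (adjusted p = 6.05e-08) and by 2.00 ± 0.19 or 3.99-fold in mice labelled transgenic (adjusted p = 2.3e-08). Kcnk16, 79.6 kb away on chromosome 14, was listed at 0 in every library. Kcnk6 was 0.36 ± 0.09 lower in control FIPs and 0.37 ± 0.09 lower in FIPs labelled transgenic (adjusted p = 0.0026 and 0.00239). Kcnk3, an acid-sensitive leak channel that sets the resting potential in several cell types, was 1.23 ± 0.32 lower in control FIPs (adjusted p = 0.00379), and differed by -0.37 ± 0.32 in mice labelled transgenic (adjusted p = 0.39).

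Of the 7 inward rectifiers tested, 6 fell in control FIPs, and 0 fell and 1 rose in FIPs labelled transgenic. In control FIPs 27.9% of all genes fell, and in FIPs labelled transgenic 19% fell and 22.7% rose. Of the 6, 3 entered the test only through APCs and had to differ (Kcnj1, Kcnj10 and Kcnj14). Kcnj15 read 4.07, 4.12, 4.67, 5.70 and 5.41 log2 CPM in control APCs and 3.21, 3.48, 3.20, 3.42 and 3.12 in control FIPs, without overlap. Its difference was -1.51 ± 0.31 in control mice (adjusted p = 0.000442) and -0.60 ± 0.31 in mice labelled transgenic (adjusted p = 0.124). Kcnj16 differed by -1.29 ± 0.38 in control mice (adjusted p = 0.00853) and by -0.72 ± 0.38 in the others (adjusted p = 0.139). Kcnj8, the pore of the ATP-sensitive channel of vascular smooth muscle and pericytes, was 0.88 ± 0.20 lower in control FIPs (adjusted p = 0.00116) and differed by -0.26 ± 0.20 in mice labelled transgenic (adjusted p = 0.326). Abcc9, which encodes the regulatory subunit that joins Kcnj8, was 1.15 ± 0.11 lower in control FIPs and 0.50 ± 0.11 lower in FIPs labelled transgenic (adjusted p = 5.95e-08 and 0.0012). Kcnj2, the classical strong inward rectifier, lies 38.2 kb from Kcnj16 on chromosome 11 and differed in the opposite direction, by 0.26 ± 0.16 in control mice (adjusted p = 0.192) and 0.77 ± 0.16 in mice labelled transgenic (adjusted p = 0.000639). The remaining 3 calls in control mice, Kcnj1, Kcnj10 and Kcnj14, concerned genes whose means reached at most 1.05 log2 CPM, and all 3 entered the test only through APCs. Kcnj10 was listed at 0 in all 10 FIP libraries.

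Of the auxiliary subunits, 1 of 7 tested rose and 1 fell in control FIPs, and 3 rose and 1 fell in FIPs labelled transgenic. Among all genes, 19.6% rose and 27.9% fell in control FIPs, and 22.7% and 19% in those labelled transgenic. Kcne1l, on the X chromosome, encodes a small single-span protein that dampens Kcnq channels. It was at or near the detection limit in APCs, with control libraries at 0.00, 0.00, 0.17, 0.00 and 0.53 log2 CPM, and read 1.62, 2.12, 1.83, 2.39 and 2.47 in control FIPs. The difference was 1.95 ± 0.21 in control mice and 1.82 ± 0.21 in mice labelled transgenic (adjusted p = 2.17e-07 and 4.78e-07). Kcne1l entered the test only through FIPs and had to differ, so these p-values are no support for the difference. Because CPM of 1 or less is listed as 0, differences of genes listed at 0 in some libraries, such as Kcne1l, are understated. With 0.1 CPM added before the logarithm, the differences of Kcne1l were 3.93 and 3.81. That setting takes values listed as 0 as 0 CPM, although they may reach 1 CPM, so it can overstate the differences. Kcne4 did not differ by a called amount in control mice (-0.04 ± 0.15, adjusted p = 0.868) and rose by 1.17 ± 0.15 in FIPs labelled transgenic (adjusted p = 2.81e-06).

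**Figure D3:**
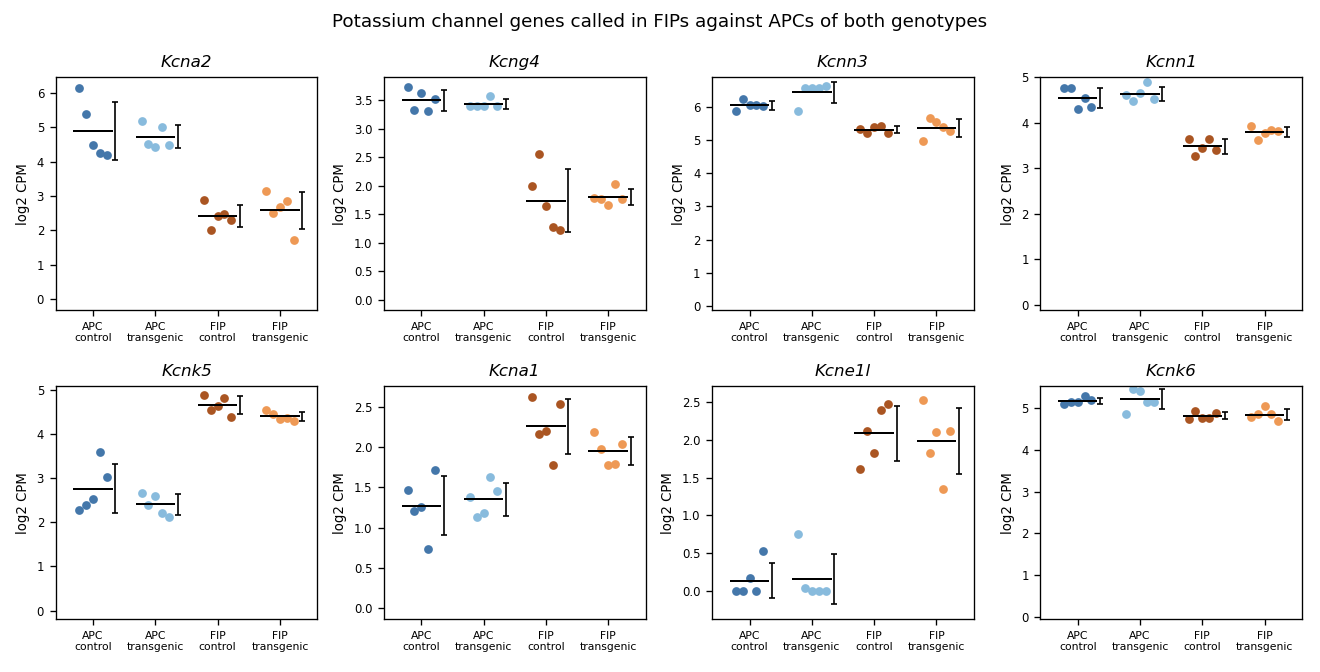
log2 CPM of 8 genes called in FIPs against APCs of both genotypes, with 1 point per library, a bar at the mean and an error bar of 1 SD (n = 5 per group). Kcna2, Kcng4, Kcnn3, Kcnn1 and Kcnk6 are lower in FIPs, while Kcnk5, Kcna1 and Kcne1l are higher. Kcne1l is at most 0.76 in APCs and at least 1.35 in FIPs, and it entered the test only through FIPs.

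Markers of vessel-wall cells and of several other cell types were also lower in control FIPs. All 14 mural markers fell in control FIPs, with summed levels of 1520 to 1750 CPM in control APCs and 868 to 928 CPM in control FIPs, and 10 of 14 fell in FIPs labelled transgenic (870 to 1050 CPM against 1520 to 1560 CPM in APCs). All 14 were above 0 in every APC library, and Abcc9 belongs to this list. Of 10 endothelial markers, 9 fell and 1 rose in control FIPs and 0 fell and 1 rose in those labelled transgenic, with summed levels between 467 and 717 CPM in all groups. Of 10 Schwann and neural markers, Snap25, Elavl4 and Foxd3 were listed at 0 everywhere, and 5 of the 7 tested fell in control FIPs (58.7 to 78.0 CPM against 85.9 to 144 CPM). All 5 tested erythroid markers also fell there (450 to 522 CPM against 802 to 1540 CPM), as did all 5 adipocyte markers (609 to 693 CPM against 819 to 1200 CPM). Of the mesothelial markers 6 of 7 fell, with overlapping sums (184 to 267 CPM against 232 to 260 CPM), and of 5 tested lymphocyte markers 3 fell (2.74 to 9.84 CPM against 7.08 to 17.7 CPM). Of 10 macrophage markers, 1 fell in control FIPs (221 to 403 CPM against 279 to 464 CPM). In such bulk samples, fewer cells of a type and less RNA per cell cannot be told apart, and the part of these cells in the channel differences was not tested.

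Between genotypes, Kcne4 was the potassium channel gene that changed in FIPs. It was the only member called, in the higher direction (1 of 45, 2.22%, against 0.373% of all genes). Kcne4 encodes a small auxiliary subunit that inhibits some voltage-gated channels, including those of the Kcna family, and lies on chromosome 1. Control FIP libraries read 4.02, 4.16, 4.02, 3.84 and 3.89 log2 CPM, and FIP libraries labelled transgenic read 4.92, 4.56, 4.79, 5.29 and 5.56. Every library labelled transgenic lay above every control library, by 1.04 ± 0.15 log2 units on average or 2.05-fold (adjusted p = 0.00487; exact permutation test, two-sided, p = 0.00794). Per length this was 12.6 ± 3.58 against 5.98 ± 0.524 CPM per kb (SD, n = 5). APC libraries read 4.01, 4.08, 4.19, 3.87 and 3.96 in controls and 3.71, 4.12, 4.22, 3.56 and 3.65 in those labelled transgenic, a difference of -0.17 ± 0.15 (adjusted p = 0.535). The genotype difference was larger in FIPs than in APCs by 1.21 log2 units (95% interval 0.75 to 1.66), which did not pass over all genes (adjusted p = 0.0669), and passed without replicate 1 of either APC group (adjusted p = 0.0205 without that labelled transgenic, 0.0284 without the control) or replicate 2 or 5 of the FIPs labelled transgenic (0.0259 and 0.0306). The FIP call held with each of the 20 libraries left out (0.90 to 1.15), and was lost when FIPs alone were fitted (adjusted p = 0.0626).

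Kcnma1, the pore of the large-conductance calcium- and voltage-activated channel, was named after its values were seen because its FIP libraries did not overlap between genotypes. Such separation held for 2 of the 45 genes, Kcne4 and Kcnma1, both in the higher direction, and for 2.89% of all genes, and 2.19% of all genes separated in that direction. Kcnma1 read 0.80, 0.07, 0.05, 0.96 and 0.14 log2 CPM in control FIPs and 1.33, 1.48, 1.56, 1.42 and 1.5 in FIPs labelled transgenic. The difference was 1.05 ± 0.25 and did not pass (adjusted p = 0.0698; p = 0.00794 by the exact permutation test, two-sided). The APC libraries read 0.07, 1.29, 1.64, 1.2 and 1.39 in controls and 0.64, 0.95, 0.82, 0.00 and 0.28 in those labelled transgenic, a difference of -0.58 ± 0.25 (adjusted p = 0.15). Without replicate 1 of both APC groups, which changes the estimate of the spread but no FIP library, the FIP difference passed (adjusted p = 0.0192), and 2 channel genes were also called without control APC replicate 1 alone. All these values lie within 1.64 log2 units of the listing limit of 1 CPM. In FIPs, 6 of the 45 genes had an unadjusted p under 0.05, all higher (Kcne4, Kcnh3, Kcnk2, Kcnma1, Kcnn1 and Kcnt2), which is 13.3% against 10.6% of all genes. Centring moved the share of higher calls over all genes from 64.6% to 51.9%. Macrophage markers in these FIPs summed to 148 to 267 CPM against 221 to 403 CPM in controls, and 0 of 10 passed.

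**Figure D4:**
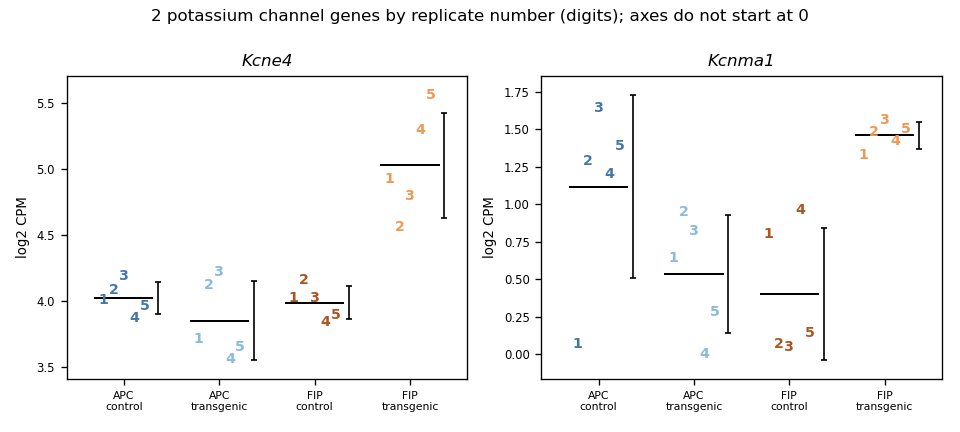
log2 CPM of Kcne4 and Kcnma1 in the 4 groups, each digit marking a library by its replicate number, with a bar at the mean and an error bar of 1 SD (n = 5); the axes do not start at 0. In FIPs, the libraries labelled transgenic lie above all control libraries for both genes, while those of APCs overlap.

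In APCs, 4 potassium channel genes were called lower in the libraries labelled transgenic and 0 higher, with Kcnk3 and Kcnab2 among them. This is 8.89% of the 45, close to the 8.01% of all genes called (5.91% lower and 2.1% higher). These calls came from the fit over all libraries, and with APCs alone fitted, 0 channel genes and 0 of all genes were called. The median difference was -0.26 over the channel genes and -0.03 over all genes, and 31 of 45 differences were below 0 (68.9%, against 58.2% of all genes). None of the 45 genes separated the genotypes without overlap, against 2.92% of all genes. Centring gave 5 lower and 1 higher and moved the share of higher calls over all genes from 26.2% to 62.6%, and quantile normalization gave 2 lower, with a share of 46.3% over all genes.

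Kcnk3 read 4.46, 4.18, 5.04, 5.17 and 5.66 log2 CPM in control APCs and 4.85, 3.29, 3.71, 3.83 and 2.95 in APCs labelled transgenic. Replicate 1 of the latter lay within the control range and the other 4 lay below it. The difference was -1.18 ± 0.32 (adjusted p = 0.0358; exact permutation test, two-sided, p = 0.0317), and -1.57 without replicate 1 of both groups (adjusted p = 0.00179). Of the exons of Kcnk3, 5.8% lie opposite the transcript Gm9899, which averaged 0.92 log2 CPM, and reads of the opposite strand cannot be assigned without knowing the strand setting of the counting.

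Kcnab2, a cytosolic partner of Kcna channels, read 2.07, 2.72, 2.67, 2.28 and 2.90 log2 CPM in control APCs and 2.23, 1.90, 2.18, 1.98 and 1.28 in APCs labelled transgenic. The groups overlapped, with a difference of -0.61 ± 0.19 (adjusted p = 0.049) that became -0.81 without replicate 1 of both groups (adjusted p = 0.00671).

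The calls in APCs depended on single libraries and on the setting. Kcnab2 lost its call in 6 of 9 alternative settings and Kcnk3 in 2. With single libraries left out, Kcnab2 lost it in 16 of 20 cases, 8 of them FIP libraries, which enter the comparison only through the estimate of the spread. Kcnk3 lost it in 7 of 20, all of them APC libraries. The number of channel genes called was 0 without replicate 2, 3, 4 or 5 of the APCs labelled transgenic or without replicate 3 or 5 of the control APCs, and 1 without control replicate 4. It was 12 (9 lower, 3 higher) without replicate 1 of the APCs labelled transgenic, and 10 and 8 without control replicates 1 and 2. The number of all genes called also changed with single libraries left out, so these counts are not read as particular to channel genes. Without replicate 1 of both groups, 17 genes were called, 14 lower and 3 higher, and 3483 of all genes, against 1396 with all libraries. The 3 higher were Kcnn3 (0.49), Kcnk2 (0.37) and Kcnt2 (0.27), while Kcnj15 (-1.41), Kcnj16 (-1.25), Kcnj2 (-0.59), Kcns3 (-0.55), Kcnj1 (-1.15), Kcnj10 (-0.64), Kcnh2 (-1.08), Kcnma1 (-0.87), Kcnn4 (-1.05) and Kcnq1 (-0.70) joined the lower. With all libraries, Kcnj15 differed by -0.98 ± 0.31 (adjusted p = 0.0535), Kcnj16 by -0.96 ± 0.38 (adjusted p = 0.118) and Kcnn3 by 0.39 ± 0.13 (adjusted p = 0.0635).

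**Figure D5:**
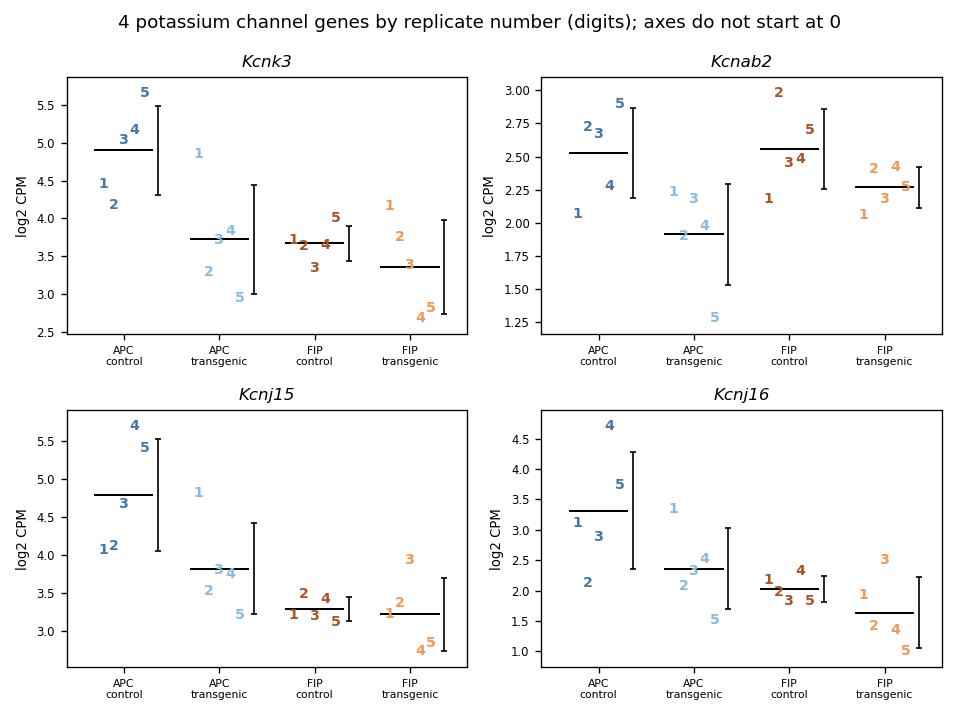
log2 CPM of Kcnk3, Kcnab2, Kcnj15 and Kcnj16 in the 4 groups, each digit marking a library by its replicate number, with a bar at the mean and an error bar of 1 SD (n = 5); the axes do not start at 0. In the APCs labelled transgenic, replicate 1 is the highest library for all 4 genes, and for Kcnk3 it stands at 4.85 against 2.95 to 3.83 for the rest.

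Markers of other cells also differed between the APC groups. In all, 7 of 10 macrophage markers fell in the libraries labelled transgenic (summed 182 to 288 CPM against 279 to 464 CPM), as did all 5 tested erythroid markers (454 to 1040 against 802 to 1540 CPM). Replicate 1 of the APCs labelled transgenic held the highest macrophage and erythroid sums of its group (288 and 1040 CPM), and replicate 1 of the control APCs the lowest of its own (279 and 802 CPM). Mural markers summed to 1520 to 1560 CPM against 1520 to 1750 CPM, and 1 of 14 fell. Of the 5 genes of the sort gates, 3 fell (134 to 188 CPM against 178 to 247 CPM for the sum): Cd9 by 0.65, Ly6c1 by 0.53 and Ly6c2 by 0.53 log2 units, each without overlap. Mesothelial markers fell in 2 of 7 (172 to 237 CPM against 232 to 260 CPM) and adipocyte markers in 2 of 5 (599 to 965 CPM against 819 to 1200 CPM). Of endothelial markers 1 of 10 fell, and of lymphocyte markers 1 of 5. Their part in the channel results was not tested.

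The direct test of whether the genotype difference differed between FIPs and APCs called 0 of the 45 genes and 0% of all genes (limma, 17435 genes). At an unadjusted p under 0.05 it gave 9 channel genes (20.0%) and 2388 genes in all (13.7%). Kcnd1, Kcne4, Kcnh2, Kcnj2, Kcnj8, Kcnj15, Kcnk13 and Kcnma1 were among the 9, of which Kcnd1 alone had a negative sign (-0.27, 95% interval -0.50 to -0.04). Over all 45 genes the sign was positive in 37, and the median was 0.28 against 0.05 over all genes. The median over all genes dropped by 0.12 when libraries were centred. Without replicate 1 of both APC groups, 6 channel genes passed, all positive, with Kcne4 (1.18), Kcnh2 (1.22), Kcnj15 (1.33) and Kcnma1 (1.92) among them, and 961 of all genes passed.

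Partners and other ion transport genes were read from 4 lists, beside 27.9% of all genes lower and 19.6% higher in control FIPs and 19% and 22.7% in FIPs labelled transgenic. Of 10 tested partners of potassium channels, 8 fell and 1 rose in control FIPs (80.0% and 10.0%) and 6 fell and 1 rose in FIPs labelled transgenic (60.0% and 10.0%). Besides Abcc9, these held the ubiquitin ligase Nedd4l, which removes channels from the membrane and was 0.70 lower in control FIPs (adjusted p = 1.07e-07), and the anchoring protein Akap5, 1.29 lower (adjusted p = 0.000214). In APCs labelled transgenic, Lrrc55, an auxiliary subunit of BK channels, rose by 0.88 (adjusted p = 0.0451). All 22 pumps and cotransporters were tested, and 9 fell and 6 rose in control FIPs (40.9% and 27.3%, against 27.9% and 19.6% of all genes), with the sodium-chloride cotransporter Slc12a3 lower by 1.58 and its regulatory kinase Wnk4 lower by 1.33. Atp1b1, a subunit of the sodium-potassium pump, fell in APCs labelled transgenic (-0.90, adjusted p = 0.0298), and the potassium-chloride cotransporter Slc12a4 rose (0.15, adjusted p = 0.0486).

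Calcium channels supply the signal that opens Kcnn channels. Of 32 tested, 10 rose and 9 fell in control FIPs (31.2% and 28.1%, against 19.6% and 27.9% of all genes). The inositol trisphosphate receptor Itpr3 was higher by 1.85 and the stretch-activated Piezo2 by 1.66, while the voltage-gated Cacna1c was lower by 1.38 and the ryanodine receptor Ryr1 by 1.5. In APCs labelled transgenic, Stim1 rose by 0.27 and Itpr3, Ryr1 and Ryr2 fell by 0.38, 1.02 and 0.57 (adjusted p between 0.0298 and 0.0488). Of 28 other cation and chloride channels tested, 8 rose and 7 fell in control FIPs (28.6% and 25.0%, against 19.6% and 27.9% of all genes). Asic3, an acid-sensing sodium channel, was 3.22 higher in control FIPs and rose by a further 1.06 in FIPs labelled transgenic (adjusted p = 0.0369), the only listed gene outside the potassium channels called between genotypes in FIPs. In APCs labelled transgenic, Ano1, Lrrc8d and Scn4b fell by 0.69, 0.26 and 1.29 (adjusted p between 0.0218 and 0.0357). Without replicate 1 of both APC groups, Lrrc55 (0.63, adjusted p = 0.0869) and Ryr2 (-0.43, adjusted p = 0.0588) were not called in APCs, and the other 8 listed genes named for this comparison were.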

How the data were processed

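RNA sequencing values came from 1 table of 54304 genes and 20 libraries. It holds log2 CPM made and deposited by the authors, rounded to 2 decimals, and values up to 1 CPM appear as 0. Per the submitters' processing notes the tools included Trim Galore 0.4.1, HISAT2 2.0.1, featureCounts 1.4.6 and DESeq2 1.6.3, with build GRCm38 (mm10). The sources used here give neither the strand setting of the counting nor the annotation release. Gene positions were taken from GENCODE M21, which held all members.

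Genes above 0 in at least 5 libraries (17435) were fitted together over all 20 libraries with limma 3.58.1 (R 4.3.3), 1 mean per group, 16 residual degrees of freedom, a variance trend, no added pseudocount and Benjamini-Hochberg adjustment at 0.05. All libraries were taken as independent, although pools must share mice. Exact two-sided permutation tests split 10 libraries into 5 and 5. No count model was used, since between 70.8% and 79.9% of a library's low values came out as whole reads, short of nearly all. The fit was tested on simulated data.

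Named were members called in FIPs against APCs whose higher group averaged 2 log2 CPM or more (up to 12 per direction), those called between genotypes, and the 6 with the highest mean not called in FIPs against APCs. Results on some members and listed genes are not reported here, and counts include these genes, except those of libraries standing apart. Members outside this rule that are named with values were chosen after these were seen. The members and lists were chosen with earlier results of these data known. Listed partner genes were named when called between genotypes or among the 4 of a list with the largest FIP against APC difference. CPM per kb took values listed as 0 as 0 CPM. Alternatives were an added 1 or 0.1 CPM, a filter at 1 or 10 libraries, median centring, quantile normalization, a block for the replicate number, only the groups compared, robust variance, and each library left out.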

Additional observations from a re-analysis of the deposited data

Results flagged for a closer look

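In 88 groups of 5 libraries (22 named genes in 4 groups), 5 held a library that stood apart from its group by Dixon's test at 95%, which chance gives in about 1 of 20 groups. Of the 5, 2 were replicate 1 of the APCs labelled transgenic. That library read 0.76 log2 CPM for Kcne1l against 0 to 0.04 in the other libraries of its group, and 5.88 for Kcnn3 against 6.57 to 6.63. For Kcne1l the listing limit of 1 CPM sets the spread of the other libraries, so a single library above it stands apart by the rule. Replicate 4 of the same group read 3.58 for Kcng4 against 3.40 to 3.41. In FIPs labelled transgenic, replicate 2 read 4.84 for Kcnd1 against 4.96 to 4.98, and replicate 5 read 2.27 for Kcnj8 against 3.06 to 3.14.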

How the results depend on the processing

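In FIPs against APCs, the number of channel genes called stayed within 1.5 times of the reported one under every alternative run (24 to 29 in control mice, 16 to 19 in mice labelled transgenic), also with a library left out (25 to 29 and 16 to 19). Between genotypes in FIPs, channel genes called were 0 with only the groups compared, 2 without replicate 1 of both APC groups and 1 to 2 with each library left out; over all genes the 65 calls became 36 with only the groups compared, 101 with the replicate block, 136 without replicate 1 of both APC groups and 9 to 123 with each library left out. Between genotypes in APCs, the 4 channel genes became 2 with genes above 0 in at least 1 library, 2 with quantile normalization, 0 with only the groups compared, 17 without replicate 1 of both APC groups and 0 to 12 with each library left out; over all genes, the 1396 calls became 823 with 0.1 CPM added, 812 with genes above 0 in at least 1 library, 2199 with median centring, 0 with only the groups compared, 3483 without replicate 1 of both APC groups and 181 to 2837 with each library left out. The interaction called 0 channel genes, 6 without replicate 1 of both APC groups and 0 to 2 with each library left out; over all genes it called 3 with 1 CPM added, 1 with quantile normalization, 961 without replicate 1 of both APC groups and 0 to 339 with each library left out. Fitting only the groups compared leaves fewer samples to estimate the spread and takes it from those groups alone. The main fit shares 1 spread per gene between APCs and FIPs. Libraries correlated with the others of their group at 0.9896 to 0.9954 in APCs and 0.9934 to 0.9966 in FIPs. The part of each in the changed counts was not tested. Whether replicate numbers pair the FIP and APC libraries was not settled. Deviations of same-numbered libraries correlated at 0.04 to 0.27 and 0.06 to 0.33 between FIPs and APCs, positive in every pair. They correlated at -0.01 to 0.11 between FIP genotypes and -0.32 to 0.15 between APC genotypes. In these comparisons, 3, 2, 1 and 1 of 5 libraries correlated best with their own number. With the replicate block, 29 and 17 channel genes were called in FIPs against APCs, 1 between genotypes in FIPs, 4 in APCs (3 lower, 1 higher) and 0 for the interaction. Depth limits all genes near 0 log2 CPM, where 1 CPM is 6.6 to 8.5 reads.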

Other observations

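Within the control APCs, several channel genes ranked the 5 libraries alike. Replicates 1 and 2 were the highest for Kcna2 (6.14 and 5.39 log2 CPM against 4.20 to 4.49 in the others), for Kcnip3 (5.61 and 5.10 against 4.32 to 4.57) and for Kcnt1 (2.12 and 1.63 against 0.73 to 1.32). The same libraries were the lowest for Kcnk3 (4.46 and 4.18 against 5.04 to 5.66) and Kcnj15 (4.07 and 4.12 against 4.67 to 5.70). Among APCs labelled transgenic, replicate 1 was the highest for Kcna2 (5.17), Kcnt1 (2.34), Kcnk3 (4.85) and Kcnj15 (4.81). These genes were picked for this pattern after their values were seen, and no test was made.

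Kcnn4, the intermediate-conductance calcium-activated channel known from macrophages and red cells, was named after its values were seen. It averaged 2.49 ± 0.72 log2 CPM in control APCs, 1.75 ± 0.49 in APCs labelled transgenic, 2.14 ± 0.25 in control FIPs and 1.56 ± 0.38 in FIPs labelled transgenic (SD, n = 5), and differed between genotypes by -0.74 in APCs and -0.59 in FIPs (limma, adjusted p = 0.11 and 0.489). Kcnh2, a voltage-gated channel of the heart, read 2.51 ± 0.28 in control APCs and 1.73 ± 0.56 in APCs labelled transgenic (difference -0.78, adjusted p = 0.059).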
